A study of Mus musculus with 6 samples.

Results

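Simple keratins, Epcam, the cadherins Cdh1 and Cdh2, and Vim were followed as 8 genes of the epithelial and mesenchymal programs in RNA of sorted tumor-associated macrophages (TAMs). The genes were taken by symbol from the 56980 genes of the deposited table, and all 8 were found, each under 1 gene identifier. They were selected on their TPM in these same libraries, where keratin transcripts were known to be abundant, so their levels describe the libraries and support nothing further. Female C57BL/6 wild-type (WT) mice and C5aR knockout (C5aR-/-) mice on the C57BL/6 background, 6 to 8 weeks old when purchased, received an intraperitoneal injection of ID8 cells. ID8 is a mouse ovarian epithelial cancer line that arose from ovarian surface epithelium of C57BL/6 mice. Tumors were taken 2 months later, and live CD45+CD11b+Ly6G-F4/80+ cells were sorted and their poly(A) RNA sequenced, with 3 libraries per group. The deletion was in the whole host animal, and the injected line was the same in both groups. The labels do not say whether a library came from 1 mouse or from several, and the number of mice per group in the study's legends differs from the number of libraries here, so the p-values measure only the spread between these libraries.

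Keratins are the intermediate filaments of epithelia, and they form only when a type II chain (here Krt7 and Krt8) pairs with a type I chain (Krt18 and Krt19). Simple epithelia, mesothelium and the ovarian surface epithelium all carry the Krt8 and Krt18 pair. Epcam is an adhesion protein of most epithelia, Cdh1 encodes E-cadherin of epithelial adherens junctions, and Cdh2 encodes N-cadherin, which replaces it in many mesenchymal cells. Vim encodes vimentin, the intermediate filament of mesenchymal cells, which macrophages also make in large amounts. In the epithelial-mesenchymal transition, factors of the Snai, Zeb and Twist families repress Cdh1 and other epithelial genes, and vimentin and N-cadherin increase.

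Values are TPM, a unit that corrects for the length of a transcript and gives every library the same total, so levels of different genes can be set side by side. TPM holds no record of sequencing depth, which is therefore unknown, and the only error given is the spread between libraries. Between 14393 and 15015 genes reached a TPM of 1 in a library. C5ar1, which encodes C5aR, was at a TPM of 16.2 to 86.5 in WT TAMs and of 0.05 to 0.38 in C5aR-/- TAMs. Macrophage transcripts were present in all 6 libraries, and the summed TPM of 10 macrophage and sort genes was from 2424 to 8415 in WT and from 2310.4 to 8167 in C5aR-/- TAMs. Transcripts of genes listed as markers of cells outside the sort gate were also present, and which cells carried them was not tested. Of 8 mesothelial markers, all 8 were at a TPM of 1 or more in every library, led by Wt1, Upk3b and Msln. The neutrophil genes S100a8 and S100a9 were detected in every library, although Ly6g, used to sort neutrophils out, was at most 4.94.

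Positions are those of whole genes in GENCODE M21 on GRCm38 (mm10), the build named in the submitters' processing notes. Krt7 (chr15:101411043-101430313), Krt8 (chr15:101996698-102004482) and Krt18 (chr15:102028180-102032027) belong to the keratin cluster of chromosome 15. Krt19 (chr11:100140810-100148665) lies in the type I cluster of chromosome 11. Epcam is at chr17:87635979-87651129 and Vim at chr2:13573927-13582826. Krt8 and Krt18 are next to each other and are read in opposite directions, with 23697 bases and 0 protein-coding genes between them.

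The 250 bases upstream of the RefSeq start (GRCm38.p6) are printed for the 3 keratins of chromosome 15 and for Epcam, because Snai and Zeb factors, whose transcripts are described further on, bind the E-box letters CACCTG. Capitals mark CACCTG or its reverse complement CAGGTG, and each sequence runs from 5′ to 3′ on the strand of the gene.
Krt7, chr15:101412153-101412402, plus strand: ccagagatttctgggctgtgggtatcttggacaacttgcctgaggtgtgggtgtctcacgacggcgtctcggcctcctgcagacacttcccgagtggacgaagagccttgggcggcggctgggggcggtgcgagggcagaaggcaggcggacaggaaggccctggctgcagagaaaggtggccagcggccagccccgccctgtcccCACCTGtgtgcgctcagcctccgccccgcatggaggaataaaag
Krt8, chr15:102004343-102004592, minus strand: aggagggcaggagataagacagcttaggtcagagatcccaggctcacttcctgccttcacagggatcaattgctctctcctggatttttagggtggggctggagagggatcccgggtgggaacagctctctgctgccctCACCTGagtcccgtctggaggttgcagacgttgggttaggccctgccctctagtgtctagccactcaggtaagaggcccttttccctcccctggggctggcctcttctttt
Krt18, chr15:102027966-102028215, plus strand: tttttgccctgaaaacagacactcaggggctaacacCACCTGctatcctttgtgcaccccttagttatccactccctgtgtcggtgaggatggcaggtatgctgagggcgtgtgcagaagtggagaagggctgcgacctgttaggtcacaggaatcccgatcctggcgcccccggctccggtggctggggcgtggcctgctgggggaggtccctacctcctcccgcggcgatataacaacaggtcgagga
Epcam, chr17:87635729-87635978, plus strand: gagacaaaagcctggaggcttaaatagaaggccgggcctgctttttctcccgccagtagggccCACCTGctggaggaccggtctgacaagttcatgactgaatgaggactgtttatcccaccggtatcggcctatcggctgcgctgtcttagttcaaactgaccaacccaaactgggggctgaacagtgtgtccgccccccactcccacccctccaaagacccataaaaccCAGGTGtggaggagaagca
The table of promoter sequences held 5 of the 8 genes. The 4 sequences shown have a match, with 1 each in Krt7, Krt8 and Krt18 and 2 in Epcam, and Vim, the fifth, has 0. Over all 32851 promoter windows of this length, 17.2% hold at least 1 match on either strand. A match describes letters only and is not a binding site.

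Vim was the highest of the 8 genes. Its TPM was 1490.3, 1398 and 1197 in WT TAM 1 to 3 and 1617, 1348 and 1525 in C5aR-/- TAM 1 to 3. It ranked between 80 and 113 among all genes of a library, and it was above the next gene, Krt19, in 6 of 6 libraries. Krt19 followed with 892, 831 and 1102 in WT and 745, 1001 and 433 in C5aR-/- TAMs. The lowest Krt19 value was thus in C5aR-/- TAM 3 and the highest in WT TAM 3.

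Krt8 was at 465, 455 and 460.2 in WT and at 758, 624 and 743 in C5aR-/- TAMs. Krt18, its usual type I partner, was at 532, 535 and 457 in WT and at 697, 512 and 479 in C5aR-/- TAMs. The order of these keratins was not fixed, since Krt19 was above Krt8 in 4 of 6 libraries and Krt8 above Krt18 in 4 of 6. Krt8, Krt18 and Krt19 ranked between 122 and 297 in every library. Together with Krt7 they made up from 0.166% to 0.22% of the TPM of a library.

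The other 4 genes were far lower. The lowest value among Vim, Krt19, Krt8 and Krt18 (433) was 27.0-fold above the highest among Krt7, Cdh2, Cdh1 and Epcam (16.1). Krt7, the second type II chain, was at 9.08, 9.46 and 11.4 in WT and at 1.31, 16.1 and 6.92 in C5aR-/- TAMs. Cdh2 was at 5.56, 7.85 and 8.43 in WT and at 1.88, 10.3 and 12.6 in C5aR-/- TAMs. Both had their lowest value in C5aR-/- TAM 1. Cdh1 was at 4.94, 5.56 and 4.78 in WT and at 4.16, 4.73 and 5.27 in C5aR-/- TAMs. Epcam was at 5.20, 6.33 and 3.03 in WT and at 4.84, 4.19 and 2.09 in C5aR-/- TAMs. Among these 4, neighbors in the order were not apart in every library: Krt7 was above Cdh2 in 4 of 6 libraries, Cdh2 above Cdh1 in 5 of 6 and Cdh1 above Epcam in 3 of 6. Of the epithelial genes, then, the keratins of the Krt8, Krt18 and Krt19 set were abundant, while Epcam and Cdh1 were both under a TPM of 7 in each library.

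**Figure D1:**
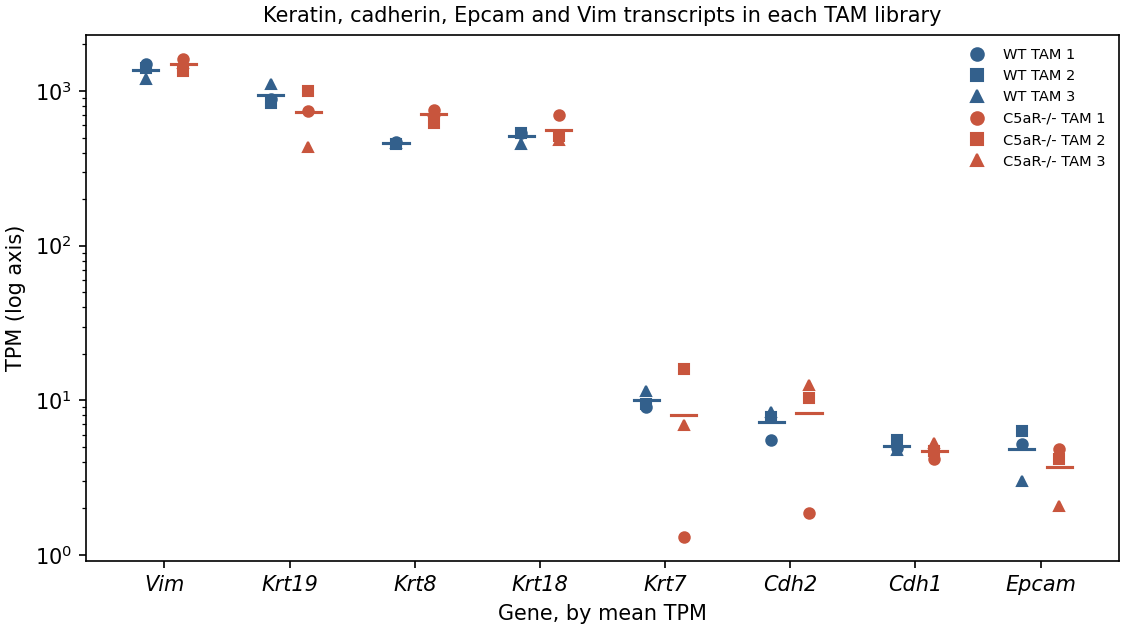
TPM of the 8 genes (log axis) in each of the 6 libraries, ordered by mean TPM, with WT TAMs in blue and C5aR-/- TAMs in red, one symbol per replicate number and a line at each group mean. Vim, Krt19, Krt8 and Krt18 lie at 433 or more and the other 4 genes at 16.1 or less, and Krt8 is the gene whose groups do not overlap.

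Across the 6 libraries, the steadiness of the 8 genes differed widely. Cdh1 varied least, with a highest value 1.34 times its lowest, where 3291 tested genes within 2-fold of its level had a median of 2.50. Vim (1.35), Krt18 (1.53) and Krt8 (1.66) were also near or below the median of genes of like level, which was from 1.58 to 1.71. Krt19 (2.55) and Epcam (3.03) were above the medians at their levels, 1.68 and 2.63. Krt7 (12.3) and Cdh2 (6.72) varied most, both with their lowest value in C5aR-/- TAM 1. The F4/80 gene Adgre1 varied 4.51-fold and Lyz2 5.05-fold over the same libraries. Within WT TAMs, Adgre1 was at 114, 45.8 and 25.4 while Krt8 stayed between 455 and 465, so that the ratio of Krt8 to Adgre1 was 4.06, 9.95 and 18.2. In C5aR-/- TAMs this ratio was 8.31, 15.6 and 26.6, and the groups overlapped. Against Ptprc, the gene of the sort marker CD45, Krt8 varied less within WT TAMs. That ratio was 6.88, 5.91 and 7.64 in WT and 7.39, 10.4 and 25.2 in C5aR-/- TAMs, also with overlap. The spread of the ratio in WT thus depended on which sort gene was used. In bulk RNA, fewer cells of a type and less RNA per cell cannot be told apart.

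The comparison of WT and C5aR-/- TAMs addressed how loss of C5aR alters the TAM transcriptome. Krt8 was 1.54-fold higher in C5aR-/- TAMs, at 708 ± 73.2 (SD, n = 3) against 460.0 ± 4.66 (SD, n = 3) in WT, and its 3 C5aR-/- values all lay above its 3 WT values. The other 7 genes had groups that overlapped. The log2 difference of Krt8 was 0.62 (standard error 0.14, 95% interval 0.29 to 0.94), with an adjusted p of 0.14 from limma, which does not pass 0.05. Krt18, its partner, had a log2 difference of 0.13 with an interval from -0.30 to 0.57 (limma, adjusted p = 0.778), and its sign turned without C5aR-/- TAM 1, where it was -0.03. Differences are on the scale of log2(TPM + 1), were tested with limma over 14776 genes and were adjusted over all of them, and since the genes were chosen with these libraries known, the values describe and are not independent tests.

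Krt19 differed in the opposite direction to Krt8, with 726 ± 285 (SD, n = 3) in C5aR-/- TAMs against 942 ± 142 (SD, n = 3) for WT. Its log2 difference of -0.45 (95% interval -1.20 to 0.31) was within the spread between libraries. Krt7 had the most negative log2 difference, -0.69, and also the widest interval, from -2.30 to 0.91. Without C5aR-/- TAM 1 its log2 difference was 0.09, so the sign rested on that library. Summed, the TPM of the 4 keratins came to 1919.8 ± 102 (SD, n = 3) for WT TAMs, while C5aR-/- TAMs had 2006 ± 299 (SD, n = 3), and the means lay closer than 1 SD of the latter.

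Neither cadherin differed beyond its spread. Cdh1 (chr8:106603351-106670246) averaged 5.09 ± 0.41 (SD, n = 3) for WT and 4.72 ± 0.56 (SD, n = 3) for C5aR-/- TAMs, and the log2 difference was -0.09 (95% interval -0.55 to 0.36). Cdh2 (chr18:16588877-16809246) averaged 7.28 ± 1.52 (SD, n = 3) and 8.28 ± 5.66 (SD, n = 3), with a log2 difference of -0.10 (95% interval -1.49 to 1.29). Its sign turned without C5aR-/- TAM 1, where the log2 difference was 0.60. Epcam had a log2 difference of -0.32 (95% interval -1.15 to 0.50) and Vim one of 0.14 (95% interval -0.26 to 0.54).

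Of the 8 genes, 0 reached both an adjusted p under 0.05 and a 2-fold difference, as did 0% of all tested genes, where limma gave 2133 genes (14.4%) an unadjusted p under 0.05. With the p left unadjusted and a 2-fold difference still required, 0 of the 8 were called, against 4.96% of all tested genes (2.13% higher and 2.84% lower in C5aR-/- TAMs). Krt8 was the 1 gene of the 8 whose unadjusted p was under 0.05 when no fold was required. Groups did not overlap for 1 of the 8 genes, again Krt8, against 21.3% of all tested genes (8.84% higher and 12.5% lower in C5aR-/- TAMs). These shares are near or below those of all genes.

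**Figure D2:**
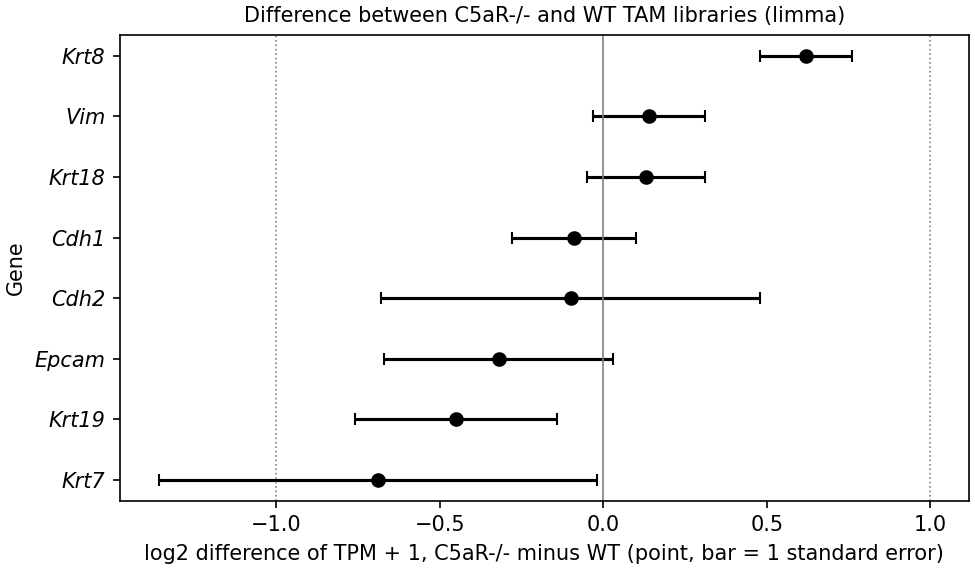
Log2 difference of TPM + 1 between C5aR-/- and WT TAMs for the 8 genes (points) with 1 standard error (bars) from limma, where dotted lines mark a fold change of 2. Krt8 is the highest at 0.62, Krt7 the lowest at -0.69, and all 8 points lie between the dotted lines.

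Within each library the keratins were not in a constant proportion. The ratio of Krt8 to Krt18 was 0.874, 0.85 and 1.01 in WT TAMs and 1.09, 1.22 and 1.55 in C5aR-/- TAMs, and the groups did not overlap. The type I members, Krt18 and Krt19, summed to 3.01, 2.94 and 3.31 times the type II members, Krt7 and Krt8, in WT TAMs, and to 1.90, 2.36 and 1.22 times in C5aR-/- TAMs. The groups again did not overlap, and type I transcripts exceeded type II transcripts in every library. The ratio of Vim to Krt8 was from 2.60 to 3.21 in WT and from 2.05 to 2.16 in C5aR-/- TAMs. All 3 ratios hold Krt8, whose own groups were apart, so they are not separate observations. As scores over the selected genes they were not tested. Of other ratios computed, Krt19 to Krt8 was from 1.82 to 2.40 in WT and from 0.582 to 1.60 in C5aR-/- TAMs, without overlap. Krt19 to Krt18 was from 1.55 to 2.41 in WT and from 0.903 to 1.95 in C5aR-/- TAMs, with overlap. Krt8 to Krt7 also overlapped, at 40.2 to 51.2 in WT and 38.9 to 578 in C5aR-/- TAMs. A ratio within a library does not change when that library is rescaled.

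**Figure D3:**
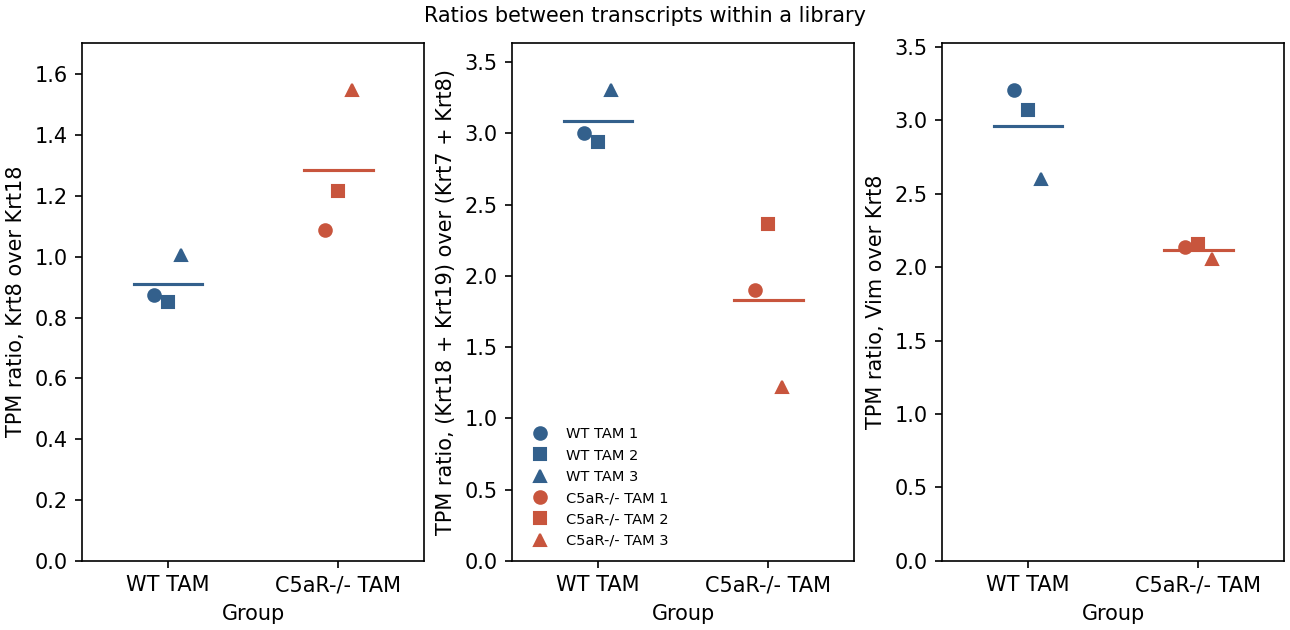
TPM ratios within each library for WT (blue) and C5aR-/- TAMs (red), with a line at each group mean: Krt8 over Krt18, Krt18 plus Krt19 over Krt7 plus Krt8, and Vim over Krt8. The ratio of Krt8 to Krt18 is at most 1.01 in WT and at least 1.09 in C5aR-/- TAMs, and the other 2 ratios are lower in each C5aR-/- library than in each WT library.

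Along chromosome 15, the 26 keratin genes held 5 that reached a TPM of 1 in any library, and 11 were listed at 0 in all 6 libraries. Only Krt8 and Krt18, at the end of the cluster, had a mean above 100 there. Of the others, Krt80, a type II keratin at the opposite end of the cluster, was at 14.2 to 27.4 in WT and 25.4 to 43.0 in C5aR-/- TAMs. The closest keratin beside Krt8, Krt78, had a TPM of at most 0.21. On the other side, Eif4b, a translation initiation factor gene next to Krt18, was at 207 to 250.5 in WT and 257 to 298 in C5aR-/- TAMs (log2 difference 0.28, limma, adjusted p = 0.395). A pseudogene of Krt8, Krt8-ps, was listed at 0 in all 6 libraries.

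Of the 27 keratin genes around Krt19 on chromosome 11, 8 reached a TPM of 1 in any library, 12 were listed at 0 throughout, and Krt19 alone had a mean above 100. Its neighbor Krt15, a basal keratin, had a TPM of at most 5.10. Krt14, the type I keratin of basal cells, was at 8.04, 5.20 and 7.27 in WT and at 3.99, 46.6 and 104 in C5aR-/- TAMs. It was thus high in 2 C5aR-/- libraries and lowest in the other (log2 difference 1.92, standard error 1.03, limma, adjusted p = 0.446). Its usual type II partner Krt5 was listed at 0 in all 6 libraries. Of the 24 keratins that are not among the 8 genes and were set down as a list, 6 were tested, and 0 passed either threshold. Their median log2 difference was 0.05 against -0.05 for all tested genes. It was -0.19 without C5aR-/- TAM 3, 0.43 without C5aR-/- TAM 1 and 0.42 without WT TAM 3. At a TPM of at least 5 only 2 of them were tested, with a median of 1.39.

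**Figure D4:**
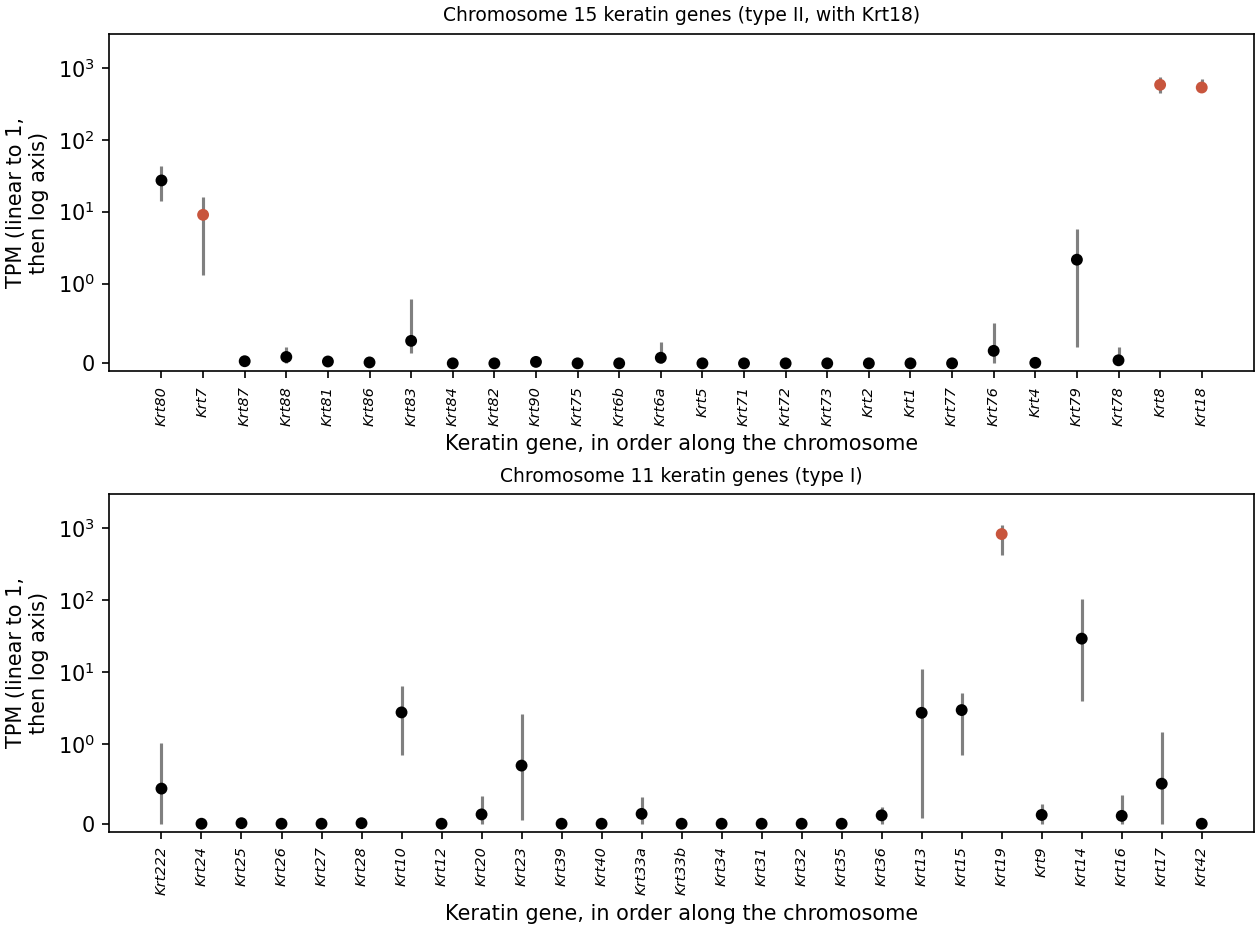
Mean TPM (points) and range over the 6 libraries (bars) of each keratin gene in order along chromosomes 15 and 11, on an axis that is linear up to 1 and logarithmic above. Red points are Krt7, Krt8, Krt18 and Krt19, and apart from Krt8, Krt18 and Krt19 no mean exceeds 100.

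Partners of the cadherins at the membrane were abundant. Ctnnb1 (beta-catenin), Ctnnd1 (p120 catenin) and Ctnna1 (alpha-catenin), which bind cadherin tails and are made by most cells, had mean TPM values of 223, 165 and 147. Of the 15 catenin and desmosome genes, 14 were tested and 0 passed either threshold, with a median log2 difference of -0.05. Jup (plakoglobin), a desmosome gene, was at 84.6, 85.6 and 104 in WT and at 143, 131 and 105 in C5aR-/- TAMs. Perp, another desmosome gene, was at 34.7, 30.4 and 30.5 in WT and at 63.4, 50.1 and 44.0 in C5aR-/- TAMs (limma, log2 difference 0.69, standard error 0.17, adjusted p = 0.167). For both genes, named after their values were seen, the groups did not overlap. Pkp4 (plakophilin 4) did not overlap in the other direction, at 41.6, 31.1 and 27.0 in WT and at 25.1, 20.9 and 19.0 in C5aR-/- TAMs (log2 difference -0.58, limma, adjusted p = 0.28). These were 3 of the 14 tested, beside 21.3% of all tested genes. Cdh3, which encodes P-cadherin, was above Cdh1 in every library, at 1.16 to 3.93 times its TPM, and the 5 other listed cadherins were at most 0.21.

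Of 19 tight junction and polarity genes, 11 were tested. Cldn3, a claudin of simple epithelia, passed the unadjusted threshold in C5aR-/- TAMs, with 48.6, 38.4 and 40.0 in WT and 104, 102 and 138 in C5aR-/- TAMs (limma, log2 difference 1.41, standard error 0.17, adjusted p = 0.0666). Cldn15 passed it in the other direction, with 73.0, 80.3 and 81.1 in WT and 25.2, 56.1 and 21.6 in C5aR-/- TAMs (log2 difference -1.29, limma, adjusted p = 0.188). F11r, encoding junctional adhesion molecule A, which leukocytes also carry, was the most abundant, with a mean of 207 and a log2 difference of 0.04. Tjp1, the scaffold ZO-1, had a mean of 59.7 and a log2 difference of -0.01. Ocln (occludin) was at most 0.44 in a library. The median log2 difference over the 11 was -0.14, and 0 passed the adjusted threshold. Over all tested genes 2.13% passed the unadjusted threshold as higher and 2.84% as lower.

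Factors that maintain epithelial identity were low. Of the 10 listed, Elf3, Esrp2 and Ehf had the highest means, 11.9, 7.59 and 6.23, and Esrp1, Grhl2, Ovol1 and Ovol2 were under a TPM of 1 in all libraries. Klf5 passed the unadjusted threshold, with 2.26, 2.27 and 2.16 in WT and 2.65, 7.69 and 10.6 in C5aR-/- TAMs (log2 difference 1.15, limma, adjusted p = 0.303). Its C5aR-/- TAM 1 value was close to the WT values. Klf5 was 1 of 5 tested, where 2.13% of all tested genes were called higher. Pax8, a marker of the Müllerian epithelium, was at most 0.27.

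Among 12 epithelial surface and secreted genes, 8 were tested, and 3 passed the unadjusted threshold, all lower in C5aR-/- TAMs, where 2.84% of all tested genes were called lower. Muc16, the CA125 mucin of ovarian cancer and mesothelium, was at 142, 147 and 148 in WT and at 39.2, 36.6 and 10.2 in C5aR-/- TAMs (limma, log2 difference -2.52, standard error 0.48, adjusted p = 0.111). The log2 differences of Slpi (-2.56), a secreted protease inhibitor, and Lcn2 (-2.41), a siderophore-binding protein, were of like size, and both are also made by neutrophils. Folr1, the folate receptor of ovarian epithelium, was at 121, 115 and 136 in WT and 299, 229 and 105 in C5aR-/- TAMs, with overlapping groups.

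Of 11 transcription factors of the epithelial-mesenchymal transition, 7 were tested, 0 passed either threshold, and all 7 tested had a log2 difference above 0, where 44.5% of all tested genes did. Their median was 0.28, against -0.05 for all genes, and under both other scalings, by quantiles and by median of ratios, the same count of 7 was above 0. Without C5aR-/- TAM 3 the count was 6 of 7, with a median of 0.20. Zeb2, which is also a factor of the macrophage lineage, was highest, at 48.1, 34.4 and 25.8 in WT and 52.8, 43.5 and 29.9 in C5aR-/- TAMs. Zeb1 was at 11.1 to 14.1 in WT and 11.1 to 18.1 in C5aR-/- TAMs. Groups did not overlap for 1 of the 7 tested, Tcf3, beside 21.3% of all tested genes. Tcf3 was at 27.35, 31.2 and 30.2 in WT and at 32.9, 32.2 and 44.1 in C5aR-/- TAMs. Snai1 was at 0.59 to 1.33 in WT and at 0.43, 2.78 and 3.97 in C5aR-/- TAMs, and Snai2 at 1.51 to 4.09 and at 1.19, 5.85 and 11.5. Of the 3 C5aR-/- libraries, TAM 1 thus had the lowest value of both Snai genes. Twist1 lay in the other direction, at 1.45, 1.03 and 0.44 in WT and at 0.07, 0 and 0.09 in C5aR-/- TAMs, and was too low to be tested. With no filter, 8 of 11 factors were above 0. The mean of Cdh1 was below that of Zeb1 and of Zeb2.

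The 12 mesenchymal and contractile genes ranged widely in level, with mean TPM values of 830 for Sparc, 545 for Cald1 and 536.0 for Fn1 at the top. Far lower were Myl9 (15.8), Acta2 (6.76), Mmp2 (3.71), Tpm2 (2.78), Tagln (2.28) and Cdh11 (1.53), and the contractile genes Acta2 and Tagln were near the levels of Cdh1 and Epcam. Of the 12, all tested, Mmp2 (log2 difference 1.77) and Itga5 (1.38) passed the unadjusted threshold as higher and Cdh11 (-1.40) as lower in C5aR-/- TAMs. Over all tested genes 2.13% were called higher and 2.84% lower, and 0 of the 12 passed the adjusted threshold. Their median log2 difference was 0.30, against -0.05 for all tested genes. Groups did not overlap for 5 of the 12 as higher, Sparc and Cald1 among them, and for 1 as lower. Over all tested genes these shares were 8.84% and 12.5%. Levels were low for Mmp2 in WT, with a mean TPM of 0.987, and for Cdh11 in C5aR-/- TAMs, with 0.393. Cdh11, the cadherin of mesenchymal cells, was at 2.59, 2.55 and 2.89 in WT and at 0.56, 0.30 and 0.32 in C5aR-/- TAMs (limma, adjusted p = 0.0861). It met the filter of a TPM of 1 in 3 libraries only through WT TAMs, so its call as lower supports nothing further. Itga5 was at 134 in C5aR-/- TAM 3 and between 18.4 and 45.4 in the other 5 libraries. Among the other 11 intermediate filament genes, the lamin gene Lmna had a mean of 238 and Nes (nestin) passed the unadjusted threshold, at 7.22, 5.67 and 7.82 in WT and 23.5, 21.3 and 14.8 in C5aR-/- TAMs (log2 difference 1.39, limma, adjusted p = 0.0922). Nes was the 1 gene called of 7 tested in that list, beside 2.13% of all tested genes called higher. Des, the muscle relative of Vim, was at most 2.56.

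**Figure D5:**
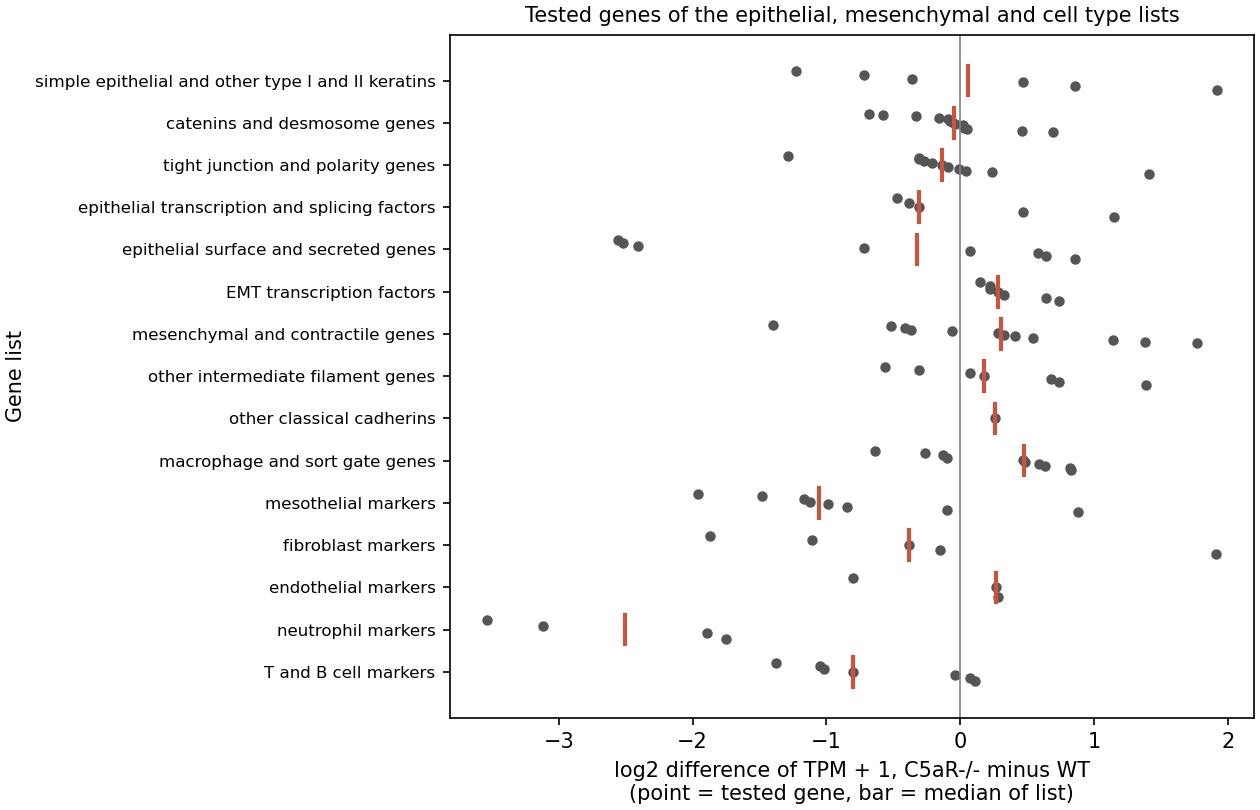
Log2 difference of TPM + 1 between C5aR-/- and WT TAMs for each tested gene (points) of the 15 gene lists, with the median of each list (red bars). The 7 tested transition factors lie above 0, 7 of 8 mesothelial markers and 4 of 4 tested neutrophil markers lie below it, and the epithelial lists spread to both sides.

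Markers of other cells also differed between the groups in which Krt8 was higher. Of the 8 mesothelial markers, 7 had a log2 difference below 0 and 4 passed the unadjusted threshold as lower, with a list median of -1.05. Of all 14776 tested genes, 8206 were below 0 and 2.84% passed that threshold as lower. The markers' summed TPM was from 1152 to 1622 in WT and from 812 to 1131 in C5aR-/- TAMs. None of them was at 0 in any library. Msln (mesothelin) differed the other way, at 145, 135 and 180 in WT and 268, 284 and 288 in C5aR-/- TAMs (limma, log2 difference 0.88, standard error 0.14, adjusted p = 0.0922). Upk3b, at 291, 377 and 380 in WT and 206, 188 and 48.8 in C5aR-/- TAMs, was among the lower ones. The ratio of Msln to Krt8 was from 0.296 to 0.39 in WT and from 0.354 to 0.455 in C5aR-/- TAMs, with overlap. Wt1 was near level, with a log2 difference of -0.10.

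The summed TPM of the 5 neutrophil markers was from 566 to 2090.4 in WT and from 19.2 to 320.1 in C5aR-/- TAMs, and Ly6g was at 0 in some C5aR-/- libraries. Of the 4 tested, 3 passed the unadjusted threshold as lower, where 2.84% of all tested genes did, and 0 passed the adjusted one. They were S100a8 (log2 difference -3.12), S100a9 (-3.54) and Cxcr2 (-1.89), the last at most 1.04 in C5aR-/- TAMs. The list median was -2.51. The 10 macrophage and sort genes overlapped between groups as a sum, with 6 of 10 higher, a median of 0.47 and 0 past either threshold. The median was 0.10 without C5aR-/- TAM 1, 0.19 without WT TAM 3 and 0.30 without WT TAM 2, and it was 0.86 without WT TAM 1 and 0.82 without C5aR-/- TAM 3, each of the last 2 with 9 of 10 higher. The sort genes themselves had log2 differences below 0, with -0.26 for Ptprc (CD45), -0.64 for Itgam (CD11b) and -0.13 for Adgre1. The sums of the fibroblast (404 to 605 in WT, 439 to 557 in C5aR-/-), endothelial (13.0 to 18.6 and 10.5 to 27.4) and T and B cell lists (79.6 to 148 and 17.1 to 157) overlapped as well. The endothelial genes Emcn and Egfl7 and the fibroblast gene Lum were at 0 in at least 1 C5aR-/- library. In WT they were also near 0, at most 0.09, 0.31 and 0.61, and they were too low to be tested. What part these cells have in the keratin and Vim values, and which cells carried the keratin transcripts, was not tested.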

How the data were processed

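Expression in TAMs sorted from ID8 tumors of WT and C5aR-/- mice (3 libraries each) was taken from the deposited TPM values. The authors used fastp for trimming, HISAT2 for alignment and StringTie for quantification, and the submitters' processing notes also list RSEM and DESeq2 and the build mm10; versions and the annotation release are not given in the sources used here. Columns with the authors' mean TPM per group were not used. The count tools named in the study's methods were not run, since the table holds no counts. Depth is unknown.

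Symbols came from GENCODE M21 (GRCm38), which matched 52073 of 56980 genes. Genes reaching a TPM of 1 in 3 or more libraries were tested on log2(TPM + 1) with limma 3.58.1 in R 4.3.3 (lmFit, eBayes with trend, Benjamini-Hochberg), C5aR-/- minus WT, after a check on simulated data. The thresholds were an adjusted or an unadjusted p under 0.05, each with a fold change of at least 2. Tables were made with Python 3.11.15 and pandas 2.3.3. Named genes were drawn from the 8 members, the 3 most abundant genes of each list and up to 4 per list past the unadjusted threshold. C5ar1 and the 5 genes nearest in profile were added. Not every gene of these sets is named, and any other gene named was chosen after its values were seen. The members and lists were chosen with earlier results of these data known. Alternative settings were quantile normalization, scaling by median of ratios, a pseudocount of 0.1, a filter at a TPM of 5, none at all, eBayes without trend, a replicate block and leaving out each library. Protein sequences were not used here.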

Additional observations from a re-analysis of the deposited data

How the results depend on the processing

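Krt8, Krt19, Epcam, Cdh1 and Vim kept the sign of their log2 difference under each alternative that could be run, but with 1 library left out the values ranged from -0.72 to -0.11 for Krt19, -0.57 to -0.04 for Epcam, -0.16 to -0.02 for Cdh1 and 0.05 to 0.21 for Vim. Krt8 was from 0.56 to 0.70, with an adjusted p from 0.0957 to 0.545 (limma). Without C5aR-/- TAM 1 the sign turned for Krt7 (0.086), Krt18 (-0.032) and Cdh2 (0.60), and without WT TAM 3 for Cdh2 (0.0021); the cause was not tested. With 1 library left out, the ranges were -1.36 to 0.09 for Krt7, -0.03 to 0.24 for Krt18 and -0.52 to 0.60 for Cdh2. The number of the 8 genes past the adjusted threshold was 0 in every setting, and past the unadjusted threshold it was 0 except without C5aR-/- TAM 2, where Krt7 passed (from 0 to 1 with 1 library left out). Epcam and Cdh1 were not tested at a TPM of at least 5, since both were too low. Over all tested genes, the unadjusted count of 733 was 475 at a TPM of at least 5 and 1266 without C5aR-/- TAM 1, and the adjusted count of 0 became 2 with eBayes without trend and 356, 1 and 3 without C5aR-/- TAM 1, 2 and 3. Median-of-ratios scaling gave keratin sums of 1885 in WT and 2034 in C5aR-/- TAMs. The labels do not say whether the replicate numbers are a pairing. Deviations of same-numbered libraries correlated at 0.186, -0.0112 and 0.272 across genes. Those of differently numbered libraries correlated at -0.23 to 0.0934, and these values cannot decide whether libraries were paired. With the replicate block the counts were 0 adjusted and 811 unadjusted, and 0 of the 8 genes passed either. Depth is unknown, so its effect on the low values of Krt7, Epcam and the cadherins cannot be given.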

Other observations

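Several genes set beside the 8 shared one arrangement over libraries. Krt14, at 46.6 and 104, Twist2, at 18.1 and 16.8, and Col1a1, at 43.3 and 236, were highest in C5aR-/- TAM 2 and 3, while in C5aR-/- TAM 1 they were at 3.99, 0.19 and 1.21. Their highest WT values were 8.04, 0.83 and 10.8. Twist2, a transition factor, failed the filter because 2 libraries reached a TPM of 1, so it was not tested. These genes were singled out after their values were seen. Of the 5 tested fibroblast markers, 4 had a log2 difference below 0. Col1a2 was at 4.50, 10.3 and 23.6 in WT and at 1.75, 2.31 and 2.46 in C5aR-/- TAMs (log2 difference -1.87). It passed the unadjusted threshold as lower, where 2.84% of all tested genes did.

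Genes nearest in profile were found as those with the smallest root mean square difference of log2(TPM + 1), each profile centered on its own mean, over the 6 libraries. For the summed keratins they were Axl (0.04), Fam76a (0.04), A930035D04Rik (0.04), Mthfsl (0.05) and Acvr2a (0.05), for a profile whose standard deviation was 0.15. Axl, a receptor tyrosine kinase, was at 201, 203 and 209.8 in WT and 239.9, 241 and 176 in C5aR-/- TAMs. For Vim the nearest were Braf, Atp6v1c1, Tuba1b and Acvr1 (0.05 each) and Pbrm1 (0.06), and for Cdh1 Chmp3 (0.03), Zfp512, Gart, Ilf2 and Cadm1 (0.04 each). The standard deviation of the Vim profile was 0.15 and that of Cdh1 0.12.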
